A study of Mus musculus with 2 samples.

Results

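Ly6a-positive Mfap5 Cd34 fibroblasts are 85 of the 653 single cells analysed here from the femurs of 2 mice, 34 of 318 in animal 1 and 51 of 335 in animal 2. A cell was counted as one when the summed level of Mfap5 and Cd34 in its well was at least 300 CPM (a gene's counts per 1000000 counts of the well), Ly6a was at least 100 CPM, and 4 cartilage genes (Ucma, Matn3, Col9a1 and Lect1) summed to under 4000 CPM. Wells with under 500 detected genes or over 20% mitochondrial counts had been removed. The cells were thus chosen by the measured values of these 7 genes, whose levels are given as a description and enter no test.

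Both animals were C57/B6 litter-mates of genotype CTSK-cre+ mTMG, taken on postnatal day 6, and there was no group without Cre. Cre made under the promoter of cathepsin K (Ctsk) switches the reporter for good, so membrane GFP marks a cell in which that promoter is or has been active, and its descendants. GFP-positive cells were sorted 1 per well, animal 1 on plate 47 and animal 2 on plate 48, so animal and plate cannot be told apart. Wells held 9767 to 675621 counts, and the count per gene and well is the unit of all values below.

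Ly6a encodes Sca-1, a small glycolipid-anchored surface protein by which mouse mesenchymal progenitors and blood stem cells are often sorted. Mfap5 encodes a glycoprotein of the microfibrils on which elastic fibres are laid down, and Cd34 a sialomucin of the surface of fibroblasts, endothelial cells and blood progenitors. In many mouse organs, fibroblasts of the outer vessel wall and of fascia carry Ly6a together with Pi16 and Dpp4, while other fibroblasts within the tissue carry Col15a1 and less Ly6a. The sorted wells held Mfap5 and Cd34 cells with Ly6a and cells low in it, and the first comparison sets them against each other. Whether these match the fibroblast types just described was not tested.

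The cells made up 10.7% of kept wells in animal 1 (exact 95% interval 7.52% to 14.6%) and 15.2% in animal 2 (11.6% to 19.5%). Among wells that met the Mfap5 and Cd34 limit and the cartilage limit, the share with Ly6a was 42.5% in animal 1 (34 of 80, 31.5% to 54.1%) and 59.3% in animal 2 (51 of 86, 48.2% to 69.8%). The intervals cover counting error only and overlapped between the animals. They were found in all 4 quadrants of both plates, at 6.10% to 19.0% of a quadrant's wells. No doublet caller was run; 0 wells met the rest of the rule while exceeding the cartilage limit.

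Ly6a split the Mfap5 and Cd34 wells with a gap. The lowest 3 positive wells had 264.7, 272.7 and 277.5 CPM, and the highest of the 81 Ly6a-low wells had 28.3 CPM, so limits of 50, 100 or 200 CPM chose the same wells. Within the positive wells Ly6a ran from 264.7 through a median of 2576 to 8776 CPM in animal 1, and from 309.8 through 2806 to 8159 CPM in animal 2. A Ly6a count of any size was present in all 85 positive wells, in 19 of the 81 Ly6a-low wells and in 35 of 180 cartilage wells. The cartilage wells, with median depths of 102493 and 124891 counts, were taken as cells that should lack the gene; the positive wells had medians of 110112 and 131701 counts. After each well was thinned to 10000 counts, a Ly6a count remained in 100% of positive wells of both animals, against 6.5% and 5.7% of Ly6a-low wells and 1.3% and 4.0% of cartilage wells.

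**Figure D1:**
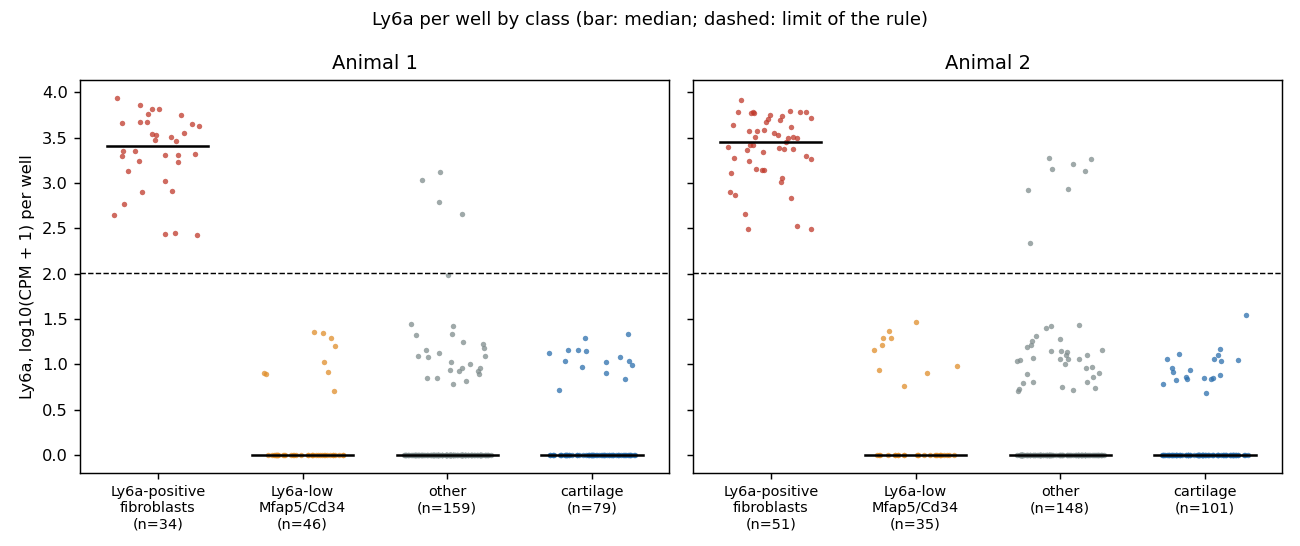
Ly6a per well as log10(CPM + 1) on the vertical axis, for the 4 classes of wells in animal 1 (left) and animal 2 (right). Points are wells, black bars are medians and the dashed line is the limit of 100 CPM; positive wells start at 264.7 CPM and the highest Ly6a-low well reached 28.3 CPM.

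Mfap5 was the steadier of the 2 other marker genes. It had a count in all 34 positive wells of animal 1 and in 50 of 51 of animal 2, and Cd34 in 29 and 47. Summed over wells, Mfap5 stood at 5414 and 6176 CPM in positive wells of animals 1 and 2, against 2257 and 2956 CPM in Ly6a-low wells, and Cd34 at 869 and 964 CPM against 455 and 551 CPM. The limit on the sum of both excluded few cells: the nearest positive wells had 305.4, 320.7 and 365.2 CPM, and the nearest well left out, with Ly6a present, had 213.97 CPM. The highest cartilage sum in a positive well was 551.6 CPM and the next 112.5 CPM, far below the limit.

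Another 12 wells carried Ly6a at 100 CPM or more, with a median of 1207 CPM, but too little Mfap5 and Cd34. Ly6c1 had a count in 8 of them, Dpp4 in 0 and Pi16 in 1. Their median Tnmd was 3361 CPM and their median Prg4 1310 CPM; Tnmd encodes the tendon membrane protein tenomodulin, and Prg4 the joint lubricant lubricin. Pecam1, Kdr and Ptprc, markers of endothelial and blood cells, were at 0 in all 12.

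The positive wells were checked against markers of other cell types. Ptprc, the pan-leukocyte gene, and 8 of 12 endothelial markers (Pecam1, Kdr, Tie1, Flt1, Egfl7, Esam, Cldn5 and Vwf) were at 0 in all of them, although both kinds of cell are known to carry Ly6a and Cd34. The endothelial list summed to 254.0 and 193.8 CPM in animals 1 and 2, of which Ramp2, a receptor accessory protein that fibroblasts also make, gave 228.3 and 184.5 CPM. The chondrocyte list (15 of 17 genes in the table) summed to 214.1 and 178.9 CPM, against 538.0 and 471.0 CPM in Ly6a-low wells. It includes the 4 cartilage genes of the rule, so this sum is partly set by how the wells were chosen. Of the tendon and ligament list, Scx was at 0, and the 10 genes summed to 1995 and 1651 CPM against 6152 and 3612 CPM in Ly6a-low wells. Macrophage and osteoclast markers stayed at 30.5 and 9.43 CPM in sum. Periosteal markers were high, at 6628 and 5322 CPM in sum, against 5557 and 4671 CPM in Ly6a-low wells. In other wells below the cartilage limit they summed to 4482 and 2753 CPM. Among them, Postn had a count in 29 of 34 and 40 of 51 positive wells. Of the 9 periosteal genes 0 passed against Ly6a-low or other wells, where 0.0497% and 0.589% of all genes did, so nothing is read from that count. One animal 2 well stood apart with 17709 CPM of articular and synovial markers, where the median positive well of that animal had 7.91 CPM.

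Ctsk itself, whose promoter drives the Cre, was low in the positive cells. Its summed level was 102.3 and 134.3 CPM in positive wells, against 290.2 and 230.4 CPM in Ly6a-low wells and 351.4 and 232.6 CPM in other wells below the cartilage limit. A Ctsk count was seen in 16 of 34 and 29 of 51 positive wells. The difference from Ly6a-low wells, −1.09 ± 0.28 on the log2 scale, did not pass the test (adjusted p = 0.402).

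Across all kept wells, Ly6c1 had the pattern most like that of Ly6a. Among 5531 genes with a count in at least 10% of wells of each animal, Spearman's rho with Ly6a was 0.52 over 318 wells in animal 1 and 0.48 over 335 wells in animal 2. Then came Clec3b (mean of both animals 0.45), Cd34 (0.45), Cd248 (0.45), Tppp3 (0.40), Medag (0.39), Dpt (0.39), Rnase4 (0.38), Igfbp6 (0.38) and Mfap5 (0.38). Cd34 and Mfap5 belong to the rule. At the other end stood Col11a1 (−0.36), a cartilage collagen, and Fmod (−0.34), fibromodulin. These are descriptions over wells that share a plate and differ in depth, and most genes were absent from many wells.

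Ly6c1 encodes Ly6C1, a sister of Sca-1, and lies near Ly6a on chromosome 15 (mm10; Ly6a chr15:74994877-74998031, Ly6c1 chr15:75044018-75048830, both on the minus strand). In positive wells its summed level was 1716 CPM in animal 1 and 1529 CPM in animal 2, against 42.3 and 73.0 CPM in Ly6a-low wells. It had a count in 31 of 34 and 40 of 51 positive wells, and in 9 of 46 and 6 of 35 Ly6a-low wells. Ly6c1 was thus higher in positive wells in both animals, as were 23.8% of all genes tested. The fitted difference was 4.96 ± 0.45 on the log2 scale, yet the adjusted p of 0.0654 missed the threshold of 0.05. Within positive wells alone, its Spearman correlation with Ly6a was 0.65 in animal 1 and 0.50 in animal 2. Ly6 genes resemble each other in sequence, and how reads shared between them were counted is not given in the sources used here.

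Other members of the Ly6 family had lower counts or differed less. Ly6e, at chr15:74955051-74959905, stood at 452.0 and 336.8 CPM in positive wells against 167.3 and 209.9 CPM in Ly6a-low wells (1.10 ± 0.28 on the log2 scale, adjusted p = 0.397). Ly6i reached 1.27 and 13.2 CPM in positive wells, from counts in 1 of 34 and 3 of 51 wells, and had no count in Ly6a-low wells. Lypd2 went the other way, with no count in positive wells against 35.99 and 53.3 CPM in Ly6a-low wells. That level came from counts in 2 of 46 and 4 of 35 Ly6a-low wells. Of 9 family members tested, Ly6c1 included, 0 passed, where 0.0497% of all genes did, so nothing is read from that count.

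The sequences before 4 of the genes described here are shown: Ly6c1, the fibrillin gene Fbn1, and Pi16 and Dpp4, which are known markers of adventitial fibroblasts. Each is the 250 bases before and 50 bases after the gene's start, 5′ to 3′ on the gene's strand, from RefSeq on GRCm38.p6. Capitals mark TATAAA, searched on both strands.
Ly6c1 (chr15:75048788-75049087, minus): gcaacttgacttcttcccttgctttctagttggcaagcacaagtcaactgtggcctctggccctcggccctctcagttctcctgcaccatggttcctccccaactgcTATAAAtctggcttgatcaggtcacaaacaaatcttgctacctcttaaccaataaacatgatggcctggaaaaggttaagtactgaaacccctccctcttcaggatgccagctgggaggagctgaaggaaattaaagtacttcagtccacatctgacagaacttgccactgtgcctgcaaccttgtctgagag
Fbn1 (chr2:125506389-125506688, minus): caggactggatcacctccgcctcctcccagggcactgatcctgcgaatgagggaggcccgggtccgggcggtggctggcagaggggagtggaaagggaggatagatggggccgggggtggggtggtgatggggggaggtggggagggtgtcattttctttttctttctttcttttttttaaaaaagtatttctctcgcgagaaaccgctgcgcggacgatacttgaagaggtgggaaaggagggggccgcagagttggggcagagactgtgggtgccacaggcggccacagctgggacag
Pi16 (chr17:29318632-29318931, plus): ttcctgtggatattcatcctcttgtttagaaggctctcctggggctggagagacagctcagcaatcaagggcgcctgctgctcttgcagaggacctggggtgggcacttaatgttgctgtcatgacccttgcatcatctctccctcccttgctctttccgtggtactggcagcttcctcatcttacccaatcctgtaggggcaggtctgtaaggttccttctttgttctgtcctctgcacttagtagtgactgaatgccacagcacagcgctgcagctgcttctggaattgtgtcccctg
Dpp4 (chr2:62412182-62412481, minus): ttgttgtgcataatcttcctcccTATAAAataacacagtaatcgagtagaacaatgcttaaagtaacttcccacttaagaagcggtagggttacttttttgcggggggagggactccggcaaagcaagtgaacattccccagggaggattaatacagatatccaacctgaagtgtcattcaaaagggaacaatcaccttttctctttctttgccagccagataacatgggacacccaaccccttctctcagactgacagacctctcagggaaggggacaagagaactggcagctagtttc
TATAAA begins 143 bases before the start in Ly6c1, for which the RefSeq table lists 2 starts, and 227 bases before it in Dpp4. It is present in 14.2% of 27025 promoters of this length. TTCNNNGAA, the core to which STAT proteins are known to bind, is present in 8.47% of those promoters and in 0 of the 4. Ly6a, Ly6e and Mfap5 had no entry in the table.

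The first test set the 85 positive wells against the 81 Ly6a-low wells, with counts summed per animal and class and animal as a block. Fibrillin-1 (Fbn1) was higher in the positive cells, and 6 genes (Mgp, Fmod, Omd, Wif1, Col11a1 and Fam180a) were lower. These 7 genes are 0.0497% of the 14095 tested (0.00709% higher and 0.0426% lower), by edgeR's quasi-likelihood test with Benjamini-Hochberg adjustment. All 7 had the same direction in both animals; over all genes tested, 23.8% were higher in both animals and 22.3% lower in both. At an unadjusted p under 0.05 stood 1267 genes. Since wells were divided by their own counts, a gene that varies with Ly6a from well to well differs between the divisions by construction. The p-values measure how class differences vary between the 2 animals, over all classes in the fit, with 3 residual degrees of freedom. A shift shared by all classes of an animal is taken up by the block. The Ly6a-low wells were shallower, with median depths of 84383 and 95101 counts.

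Fbn1, the main protein of microfibrils, stood at 1617 CPM in animal 1 and 1199 CPM in animal 2 in positive wells, against 409.5 and 285.4 CPM in Ly6a-low wells. The lowest positive value was above the highest Ly6a-low value, a difference of 2.06 ± 0.14 on the log2 scale (adjusted p = 0.0260). A count was present in 28 of 34 and 42 of 51 positive wells, and the median positive well had 890.8 and 743.8 CPM. In a fit that required 600 CPM of Mfap5 and Cd34, the adjusted p of Fbn1 was 0.0609, and of the 7 genes only Mgp passed. The Fbn1 call was also lost without animal as a block (adjusted p = 0.134) and with limma on mean CPM (0.0567).

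Mgp, the matrix protein that blocks calcification of cartilage and arteries, stood at 1720 and 1769 CPM in positive wells against 5603 and 6350 CPM in Ly6a-low wells. The groups did not overlap (−1.74 ± 0.07 on the log2 scale, adjusted p = 0.00767). It kept a count in all positive wells, with medians of 1038 and 824.2 CPM against 4030 and 3670 CPM in Ly6a-low wells, so the typical well was lower too. Its Spearman correlation with Ly6a within positive wells was −0.42 in animal 1 and −0.16 in animal 2.

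Fmod, a small leucine-rich proteoglycan that binds collagen in tendon and cartilage, was lower in sum. It stood at 5.84 and 3.92 CPM in positive wells against 378.7 and 478.9 CPM in Ly6a-low wells (−6.44 ± 0.28 on the log2 scale, adjusted p = 0.00767). No positive well exceeded 42.9 CPM, while single Ly6a-low wells reached 3451 and 4677 CPM. The median well had 5.40 and 0 CPM among positive wells against 9.96 and 7.37 CPM among Ly6a-low wells, so the summed contrast came from the high Ly6a-low wells and typical wells of both classes held little Fmod. Omd, osteomodulin of the same family, stood at 20.3 and 18.7 CPM in positive wells against 216.2 and 149.5 CPM in Ly6a-low wells (−3.18 ± 0.17, adjusted p = 0.0115). A single well held 63.2% of the Omd counts of Ly6a-low wells in animal 1 and 87.9% in animal 2. With the top well of each class left out, the Omd difference was −2.33 and no longer passed (adjusted p = 0.405).

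Wif1, a secreted inhibitor that binds Wnt proteins, stood at 11.4 and 14.4 CPM in positive wells against 179.3 and 324.2 CPM in Ly6a-low wells (−4.21 ± 0.20 on the log2 scale, adjusted p = 0.00858). The median well had 0 and 5.14 CPM of Wif1 among positive wells, and 0 CPM in both animals among Ly6a-low wells. A Wif1 count was present in 11 of 34 and 27 of 51 positive wells, against 19 of 46 and 11 of 35 Ly6a-low wells. One well gave 49.9% of the Ly6a-low counts in animal 1 and 51.6% in animal 2, and the difference of Wif1 without the top wells was −4.98. With the limit of 600 CPM it was −2.67 (adjusted p = 0.344). Col11a1 stood at 34.3 and 33.9 CPM against 215.3 and 158.8 CPM (−2.40 ± 0.15, adjusted p = 0.0260), and without the top wells its difference was −3.94. The median well had 7.63 and 0 CPM of Col11a1 among positive wells, against 15.5 and 9.17 CPM among Ly6a-low wells. With limma on mean CPM, Col11a1 did not pass (adjusted p = 0.0513). Fam180a, a gene of little known function, stood at 2.79 and 2.18 CPM against 76.3 and 80.1 CPM (−4.97 ± 0.35, adjusted p = 0.0309). Fam180a had a count in 7 of 34 and 14 of 51 positive wells, against 10 of 46 and 12 of 35 Ly6a-low wells, and its median was 0 CPM in both classes. The highest well had 24.3 and 21.3 CPM among positive wells, against 1441 and 729.5 CPM among Ly6a-low wells, so a few wells carried the Ly6a-low sum. Col11a1 and Fam180a lie outside the rule for named genes and were added after their values were seen.

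Tendon genes stood lower in this comparison. Of 10 tendon and ligament markers, 1 (Fmod) was lower past the test, and 9 were lower in both animals. Of all genes tested, 0.0426% were lower past the test and 22.3% were lower in both animals. Tnmd stood at 92.2 and 13.9 CPM in positive wells against 2217 and 773.9 CPM in Ly6a-low wells (−5.02 ± 0.64 on the log2 scale, adjusted p = 0.167). With wells of 300 CPM or more of Tnmd left out, 32 and 50 positive wells and 27 and 27 Ly6a-low wells remained in animals 1 and 2. Mgp (−1.58) and Ly6c1 (4.85) then passed, both with adjusted p = 0.0313. Fbn1 was 1.94 (adjusted p = 0.156), Fmod −4.51 (0.490), Wif1 −2.75 (0.646), Omd −0.58 (0.616), Col11a1 −0.74 (0.691) and Fam180a −4.40 (0.144).

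**Figure D2:**
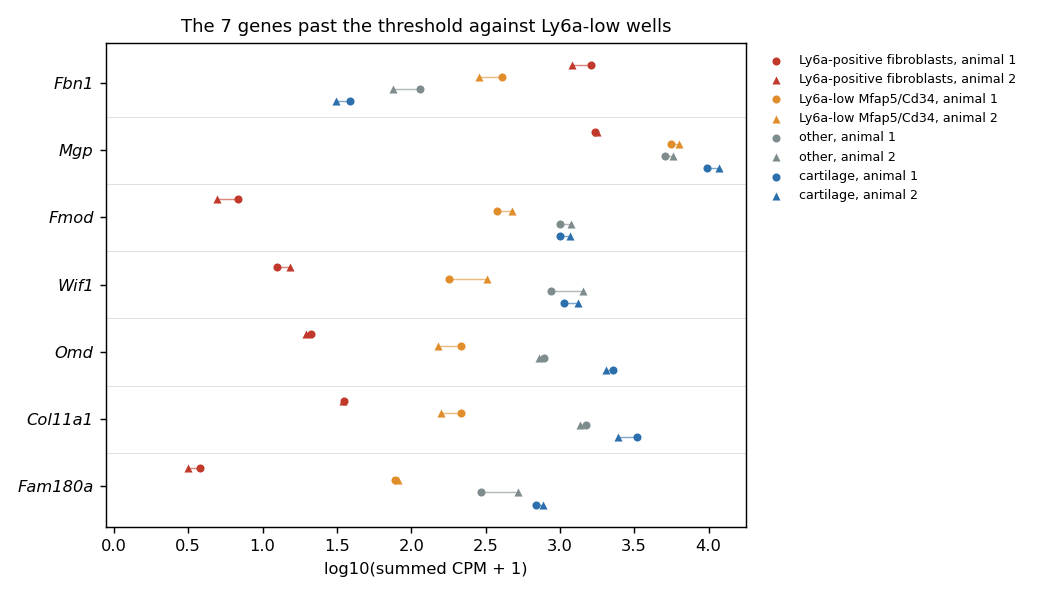
Summed level as log10(CPM + 1) of the 7 genes past the threshold, with 1 point per animal (circle animal 1, triangle animal 2) for positive, Ly6a-low, other and cartilage wells from top to bottom in each row. Fbn1 is highest in positive wells, at 1617 and 1199 CPM, and the other 6 genes are lowest there.

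Genes of adventitial fibroblasts lay higher in the positive cells than in Ly6a-low cells, but none passed the test, where 0.0497% of all genes did. Of 30 genes on the list, 29 were tested; 26 were higher in both animals and 1 lower in both. Their median difference was 2.77 on the log2 scale, against 0.03 over all genes tested, and 22 were higher at an unadjusted p under 0.05. Of all 14095 genes tested, 699 were higher at that level, 23.8% were higher in both animals and 22.3% lower in both. The list was drawn up with earlier results of these data known, so its direction is no independent evidence.

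Pi16, a peptidase inhibitor, stood at 117.3 and 136.4 CPM in positive wells against 8.60 and 29.5 CPM in Ly6a-low wells (2.95 ± 0.64 on the log2 scale, adjusted p = 0.382). Dpp4, a surface peptidase also known as CD26, stood at 90.9 and 69.2 CPM against 16.1 and 7.65 CPM (2.83 ± 0.83, adjusted p = 0.425). Both genes were seen in some of the positive cells: Pi16 had a count in 6 of 34 and 15 of 51 wells, Dpp4 in 14 and 13, and both together in 4 and 6. A single well gave 42.0% of the Pi16 counts of positive wells in animal 1.

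Surface and secreted proteins of the list followed. Cd248, the fibroblast protein endosialin, stood at 299.9 and 402.9 CPM in positive wells against 36.7 and 42.1 CPM in Ly6a-low wells (3.20 ± 0.72 on the log2 scale, adjusted p = 0.392). Scara5, a ferritin receptor, stood at 219.2 and 168.3 CPM against 16.3 and 17.5 CPM (3.55 ± 0.60, adjusted p = 0.277). Ackr3, a scavenger receptor for the chemokine CXCL12, stood at 488.6 and 420.3 CPM against 28.97 and 106.9 CPM (2.98 ± 0.66, adjusted p = 0.391). Each of these was higher in positive than in Ly6a-low wells in both animals, as were 23.8% of all genes tested, so nothing is read from that. Sema3c, a secreted guidance factor, stood at 727.3 and 716.4 CPM against 207.6 and 176.0 CPM (1.94 ± 0.28, adjusted p = 0.211). Ugdh, the enzyme that makes the sugar precursor of hyaluronan, stood at 721.5 and 435.5 CPM against 173.4 and 84.2 CPM (2.23 ± 0.31, adjusted p = 0.202).

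Some genes of the list were found in both kinds of Mfap5 and Cd34 cells. Igfbp6, a binding protein for insulin-like growth factor 2, stood at 1407 and 1798 CPM in positive wells against 753.3 and 1019 CPM in Ly6a-low wells. Tppp3, a tubulin-binding protein, stood at 2442 and 2727 CPM against 1292 and 1615 CPM. Dpt, dermatopontin, stood at 610.0 and 518.3 CPM against 474.0 and 212.7 CPM. Of the complement list, Serping1, the C1 inhibitor, stood at 943.2 and 1019 CPM against 863.5 and 936.5 CPM, a difference of 0.17 ± 0.46 on the log2 scale.

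**Figure D3:**
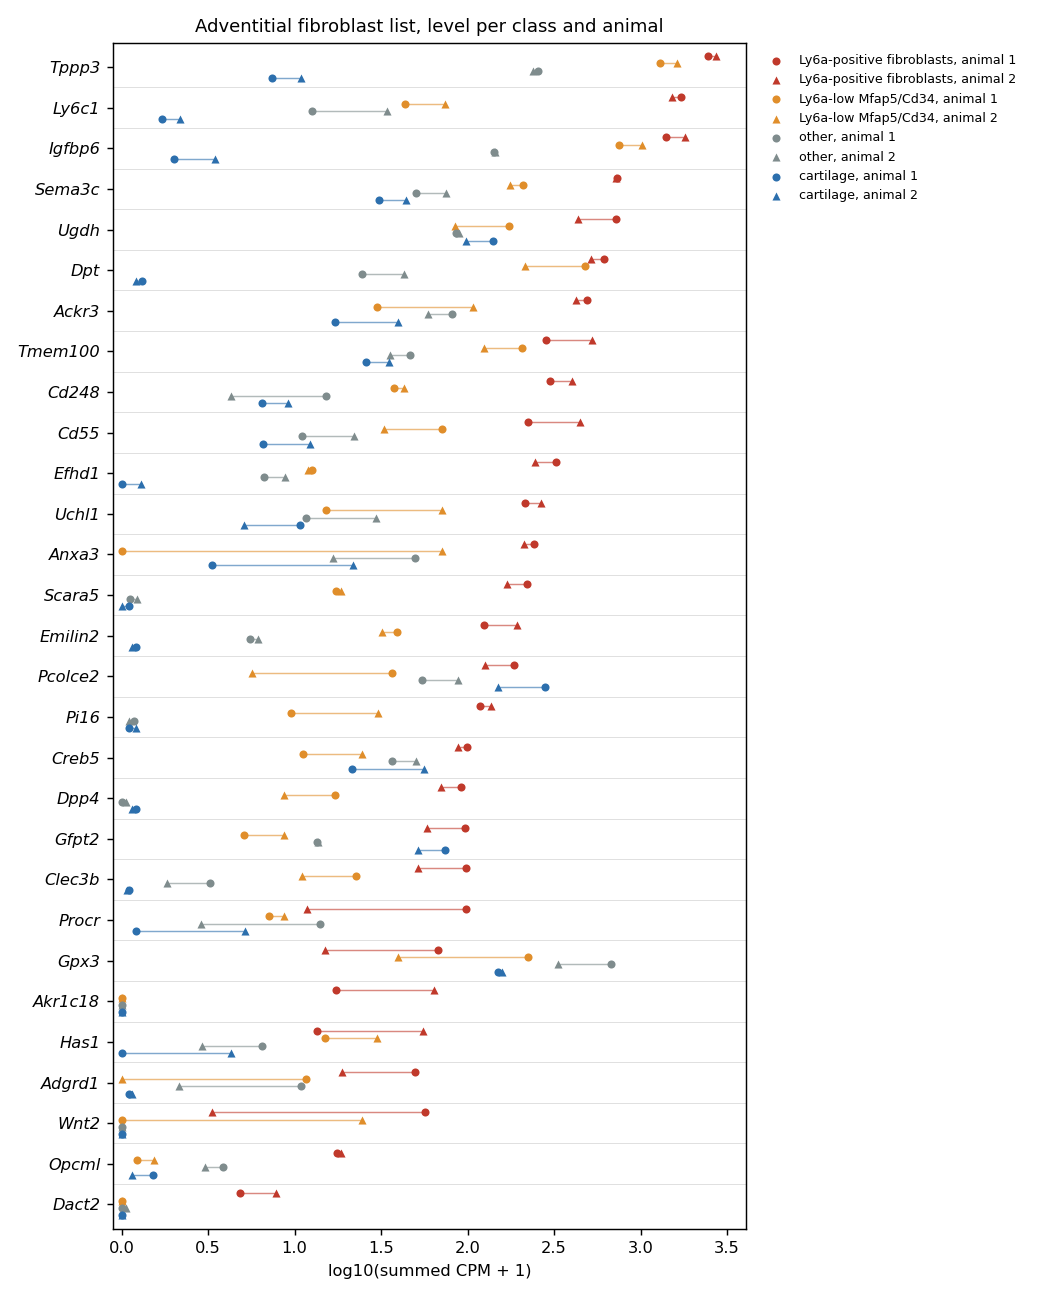
Summed level as log10(CPM + 1) of the 29 tested genes of the adventitial fibroblast list, with 1 point per animal for positive, Ly6a-low, other and cartilage wells from top to bottom in each row. Of the 29, 26 lie higher in positive than in Ly6a-low wells in both animals, and Gpx3 lies lower in both.

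The parenchymal list, named for Col15a1, lay the other way against Ly6a-low wells. Of 17 genes tested, 0 passed, where 0.0497% of all genes did. In both animals, 11 were lower and 3 higher, where 22.3% of all genes tested were lower and 23.8% higher. The median difference was −0.99 on the log2 scale against 0.03 over all genes. Col15a1, a collagen of basement membrane zones, stood at 54.1 and 94.6 CPM in positive wells against 260.3 and 170.0 CPM in Ly6a-low wells (−1.53 ± 0.42, adjusted p = 0.410). Col4a1 of the basement membrane stood at 221.2 and 265.9 CPM against 654.6 and 545.6 CPM (−1.23 ± 0.30, adjusted p = 0.394). Gsn, the actin-severing protein gelsolin, hardly differed, at 951.6 and 1010 CPM against 851.7 and 867.9 CPM.

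The collagens of the fibrous matrix were lower in positive cells than in Ly6a-low cells in both animals for 15 of 19 genes tested. Their median difference was −0.73 on the log2 scale, and 0 passed, where 0.0497% of all genes did. Of all genes tested, 22.3% were lower in both animals. Col1a1, of collagen I in bone and tendon, stood at 4501 and 2401 CPM against 7963 and 4653 CPM (−0.85 ± 0.11, adjusted p = 0.168). Col12a1, of a collagen on fibril surfaces, stood at 236.4 and 217.5 CPM against 527.2 and 449.4 CPM (−1.06 ± 0.12, adjusted p = 0.141). For Col3a1 the values overlapped, at 9624 and 6750 CPM against 10893 and 7944 CPM.

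The elastic fibre list went both ways against Ly6a-low wells. Of 23 genes, Fbn1 was the 1 that passed, where 0.0497% of all genes did, so nothing is read from the rest not passing. The median difference was 0.14 on the log2 scale, against 0.03 over all genes tested, with 8 higher and 6 lower in both animals. Of all genes tested, 23.8% were higher and 22.3% lower in both, so nothing is read from these counts. Mfap4, another microfibril protein, stood at 219.4 and 93.0 CPM in positive wells against 772.5 and 422.3 CPM in Ly6a-low wells (−1.96 ± 0.23, adjusted p = 0.141). Emilin2, an elastic fibre glycoprotein, stood at 123.7 and 192.2 CPM against 38.3 and 30.9 CPM (2.21 ± 0.43, adjusted p = 0.353). Among 15 genes of the insulin-like growth factor axis 0 passed, and nothing is read from that count either. Igfbp5 stood at 1910 and 1683 CPM against 472.4 and 615.1 CPM (1.75 ± 0.20, adjusted p = 0.130).

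The second comparison set the positive wells against the 307 other wells below the cartilage limit. In these other wells tendon and ligament markers summed to 6675 and 6384 CPM, and osteoblast and osteocyte markers to 3567 and 2827 CPM. Chondrocyte markers, the 4 rule genes included, summed to 4743 and 6341 CPM there. Periosteal markers summed lower there than in positive wells. In this comparison 83 genes passed, 0.589% of those tested, with 35 higher (0.248%) and 48 lower (0.341%), all in the same direction in both animals. Of all genes tested, 23.6% were higher and 34.2% lower in both animals. Over all genes the median difference was −0.22 on the log2 scale. Of the adventitial list 10 of 29 rose (Clec3b, Dpp4, Emilin2, Igfbp6, Ly6c1, Pi16, Scara5, Sema3c, Tppp3 and Ugdh) and 0 fell, with a list median of 3.51.

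Dpp4, Pi16 and Scara5 were close to absent from other wells. Dpp4 stood at 90.9 and 69.2 CPM in positive wells against 0 and 0.0553 CPM in other wells (adjusted p = 0.0380). Pi16 stood at 117.3 and 136.4 CPM in positive wells against 0.173 and 0.111 CPM in other wells (adjusted p = 0.0212), and Scara5 at 219.2 and 168.3 CPM against 0.115 and 0.221 CPM (adjusted p = 0.0186). No fold is given for these genes because the other wells held few or no counts. Clec3b, tetranectin, stood at 97.5 and 51.1 CPM against 2.24 and 0.830 CPM (adjusted p = 0.0458), but it passed in only 6 of 13 alternatives, with adjusted p up to 0.431. Dpp4 passed in 10 of the 13 (up to 0.0656), Scara5 in 12 (0.153 without the top wells) and Ugdh in 10 (up to 0.0769). Of the genes named as past the threshold against other wells, Pi16, Ly6c1, Igfbp6, Sema3c, Fbn1, Fbln2, Fstl1, Anxa2, Mia, Spp1, Omd, Mgp, Dcn and Col12a1 passed in all 13, and each of the rest was lost in 1 to 7. The Ly6a limits of 50 and 200 CPM are among the 13 and chose the same wells as the main fit, so they could not lose a call.

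Ly6c1 rose against other wells, at 1716 and 1529 CPM in positive wells and 11.6 and 33.1 CPM in other wells (6.30 ± 0.48 on the log2 scale, adjusted p = 0.0155). Fbn1 stood at 1617 and 1199 CPM against 113.4 and 74.4 CPM (3.86 ± 0.15, adjusted p = 0.00158). In the elastic fibre list it rose together with Fbln2 (4.47 ± 0.41), Emilin2 (4.95 ± 0.48) and Ltbp4 (3.33 ± 0.26), which binds latent TGF-beta, while 19 of 23 did not pass. Ltbp4 had a count in 19 of 34 and 29 of 51 positive wells, and in 25 of 46 and 20 of 35 Ly6a-low wells. Igfbp6 stood at 1407 and 1798 CPM against 141.0 and 143.0 CPM (3.41 ± 0.27, adjusted p = 0.0166), and Tppp3 at 2442 and 2727 CPM against 253.2 and 237.4 CPM (3.32 ± 0.18, adjusted p = 0.00501). Fstl1, a secreted glycoprotein, stood at 5089 and 4507 CPM against 1048 and 778.6 CPM (2.34 ± 0.18, adjusted p = 0.0155). Against Ly6a-low wells the Fstl1 difference was 0.89 on the log2 scale and did not pass.

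A further 6 genes that rose lie outside the rule for named genes and were chosen after their values were seen. They include the annexins Anxa1 (1.62 ± 0.17 on the log2 scale) and Anxa2 (1.73 ± 0.15) and their S100 partners S100a10 (1.34 ± 0.07) and S100a11 (1.34 ± 0.13). S100a10 stood at 4361 and 5383 CPM in positive wells against 1666 and 2013 CPM in other wells (adjusted p = 0.00464). The actin-binding peptide Tmsb4x (1.54 ± 0.15) and the intermediate filament Vim (1.27 ± 0.14) are the others. None of the 6 passed against Ly6a-low wells, where 0.0497% of all genes did.

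Genes of mineralised tissue, tendon and cartilage were among the 48 that fell against other wells. Spp1, osteopontin of bone matrix, stood at 31.0 and 11.03 CPM in positive wells against 1828 and 1623 CPM in other wells (−6.54 ± 0.58 on the log2 scale, adjusted p = 0.0205). Tnmd stood at 92.2 and 13.9 CPM against 2416 and 2074 CPM (−6.04 ± 0.67, adjusted p = 0.0375). Mia, a secreted protein of cartilage, stood at 7.11 and 4.35 CPM against 411.9 and 664.5 CPM (−6.62 ± 0.39, adjusted p = 0.00685). Cited1, a transcriptional co-regulator, stood at 0 and 0.145 CPM against 51.3 and 60.3 CPM (adjusted p = 0.0342). Fmod (−7.90 ± 0.29), Wif1 (−6.51 ± 0.22) and Omd (−5.33 ± 0.18) fell again, and Mgp was lower by a like amount as against Ly6a-low wells (−1.70 ± 0.07). Both comparisons share the positive wells.

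Collagen and proteoglycan genes shifted within their families. Col3a1, typical of loose connective tissue, rose to 9624 and 6750 CPM in positive wells, against 4171 and 2743 CPM in other wells (1.19 ± 0.13 on the log2 scale, adjusted p = 0.0349). Col1a1 (−1.61 ± 0.11), Col1a2 (−1.30 ± 0.10), Col12a1 (−2.51 ± 0.13) and Col16a1 (−2.52 ± 0.17) fell, and 14 of 19 did not pass. Without animal as a block, Col3a1 (adjusted p = 0.139), Col1a1 (0.217), Col1a2 (0.193) and Col16a1 (0.0567) did not pass, and Col12a1 did. Decorin (Dcn) rose, at 6507 and 5793 CPM against 2891 and 2283 CPM (1.19 ± 0.10, adjusted p = 0.0196), while biglycan (Bgn) fell, at 1850 and 1618 CPM against 3384 and 3573 CPM (−1.07 ± 0.09, adjusted p = 0.0200). A high Dcn level was not particular to positive wells. The median positive well had 5673 and 5747 CPM of Dcn, and the median Ly6a-low well 7090 and 5604 CPM.

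**Figure D4:**
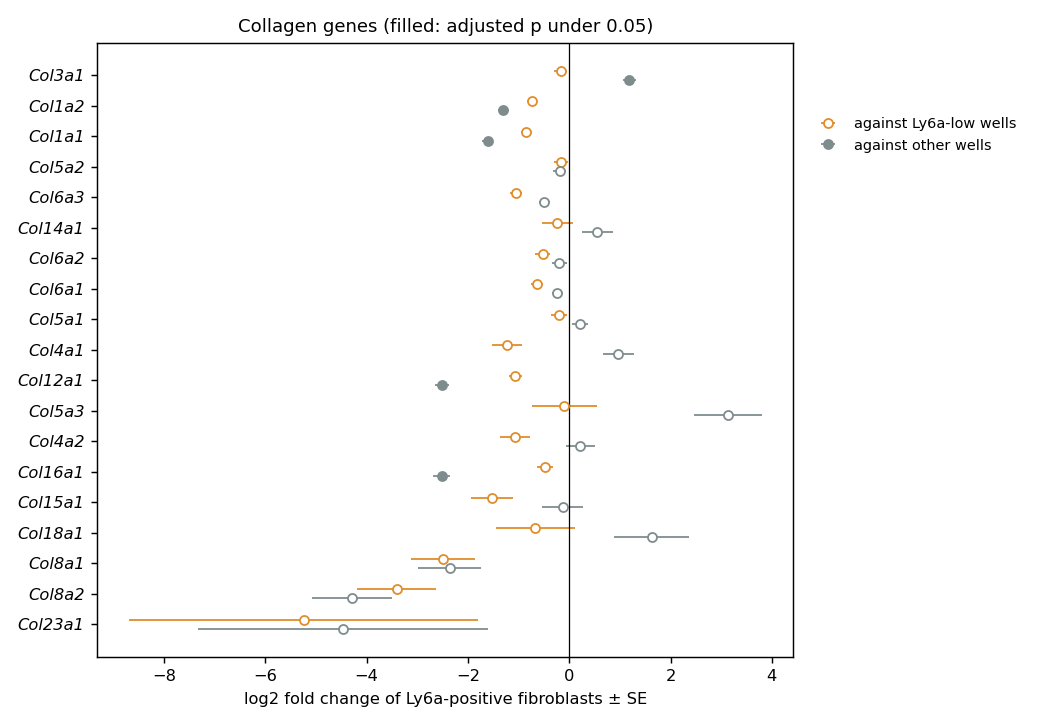
Log2 fold change (horizontal axis) of the 19 tested collagen genes in positive wells, against Ly6a-low wells (upper symbol) and against other wells below the cartilage limit (lower symbol), with bars of 1 standard error of the fit and filled symbols past the threshold. Col3a1 is filled at 1.19 and Col1a1, Col1a2, Col12a1 and Col16a1 are filled below 0, all against other wells.

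Of 18 skeletal progenitor surface genes tested, 0 passed against Ly6a-low wells, where 0.0497% of all genes did, so nothing is read from that count. Against other wells, where 0.589% of all genes passed, Cd24a was the 1 that fell, at 12.2 and 17.99 CPM against 152.5 and 147.3 CPM (−3.40 ± 0.38 on the log2 scale, adjusted p = 0.0375). Thy1, a mesenchymal surface glycoprotein, had a count in 16 of 34 and 26 of 51 positive wells, against 9 of 46 and 6 of 35 Ly6a-low wells (1.72 ± 0.97 on the log2 scale, adjusted p = 0.638). Pdgfra, a growth factor receptor of fibroblasts, had one in 15 and 24 positive wells against 23 and 13 Ly6a-low wells. Eng, of the TGF-beta receptor complex, had a count in 5 and 4 positive wells against 6 and 3 Ly6a-low wells, and Cd200 in 5 and 3 against 12 and 7.

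Against the 180 cartilage wells, 405 genes passed, 2.87% of those tested, with 216 higher (1.53%) and 189 lower (1.34%). Cartilage genes were partly set by the rule there, and nothing further is drawn from their fall. Of the adventitial list 15 of 29 rose and 0 fell.

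Among themselves the positive cells varied widely. Fbn1 ran from 0 to 4755 CPM over wells in animal 1 and from 0 to 4912 CPM in animal 2, and Mfap5 from 1709 to 14227 CPM and from 0 to 17375 CPM. Igfbp6 had a count in 31 of 34 and 47 of 51 wells, with medians of 1111 and 1845 CPM. Clec3b was found in 25 and 27 wells, with medians of 19.3 and 5.03 CPM, and Scara5 in 12 and 16. Cd55, a complement regulator, had a count in 14 of 34 wells in animal 1 and 34 of 51 in animal 2, and stood at 222.0 and 444.3 CPM in sum.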

How the data were processed

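Libraries came from single sorted wells by template switching, PCR and Nextera XT on an Illumina HiSeq, per the labels' protocols. The authors deposited raw whole-number counts for 24866 genes and 658 wells, made on build mm10 with CASAVA per the submitters' processing notes. No source used here gives the aligner, the counter, its annotation or strand setting, or whether duplicates were removed. Counts were not read as molecules, since the median nonzero value was 18.

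Kept were 653 wells; the 5 others had 26.7% to 94.2% mitochondrial counts. Each animal's wells were put in 4 classes and summed, giving 8 libraries of 3658182 to 18073014 counts. They were fitted with edgeR 4.0.16 (R 4.3.3; TMM, filterByExpr, quasi-likelihood test, animal as a block) on 14095 genes. The 7 rule genes were left out of tests. Benjamini-Hochberg adjusted p-values are over all these genes with a threshold of 0.05. The ± beside a log2 fold change is its standard error, n is 2 animals in every class, and printed CPM are summed counts over summed totals without TMM. The 2 animals were litter-mates, and an exact permutation test over 2 animals could not reach the threshold. The fit was tested on simulated data.

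Members and gene lists were chosen with earlier results of these data known. Named genes were the 12 largest changes past the threshold in each direction with at least 50 CPM and no well above 20% of the counts, plus up to 6 of each list; others were chosen after their values were seen. Alternatives were DESeq2 1.42.0, limma 3.58.1 on mean CPM with a pseudocount of 1, other filters, limits and thinned wells. Positions are those of GENCODE on the same build.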

Additional observations from a re-analysis of the deposited data

How the results depend on the processing

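The share of wells that were positive stayed within its counting interval under every alternative, and was 10.7% to 15.2% with 1 animal left out. Against Ly6a-low wells, the 7 calls became 638 with the DESeq2 Wald test, 53 with wells thinned to 10000 counts, 1 (Mgp) with a Mfap5 and Cd34 limit of 600 CPM, and 2 (Mgp and Ly6c1) without wells of Tnmd at 300 CPM or more, a choice made after seeing the data. Against other wells, the 83 calls became 769 with DESeq2, 281 with thinned wells, 128 with limma on mean CPM and 55 without the Tnmd wells. Against cartilage wells, the 405 calls became 1702 with DESeq2, 685 with thinned wells and 219 without the Tnmd wells. The DESeq2 calls included all of these 7, 83 and 405 genes. Serping1 against Ly6a-low wells reversed with thinned wells (−0.0234), and Tnmd reversed without the Tnmd wells (0.95), by the construction of that alternative. Without the replicate block for animal, 10, 83 and 468 genes passed, sharing 6, 66 and 356 with the blocked fit, and Fbn1 against Ly6a-low wells was lost (adjusted p = 0.134); the pairing comes from classes of the same animal. Apart from the alternatives named, causes were not tested. Leaving out 1 animal leaves no residual degrees of freedom, so only fold changes were computed. Pi16 and Dpp4 rest on few wells, and a well without a count says only that none was seen at its depth.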

Other observations

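Osr1, a transcription factor of limb connective tissue, stood at 122.2 and 135.5 CPM in positive wells of animals 1 and 2, against 129.2 and 5.19 CPM in Ly6a-low wells and 2.70 and 2.16 CPM in other wells. Of 37 transcription factors tested, 0 passed against Ly6a-low wells or against other wells by edgeR's quasi-likelihood test, where 0.0497% and 0.589% of all genes passed, so nothing is read from these counts. Of 35 genes of S and G2/M phase, 0 passed in either comparison; 17 were lower and 1 higher in both animals against Ly6a-low wells, where 22.3% of all genes were lower and 23.8% higher in both.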
